A study of Saccharomyces cerevisiae with 10 samples.

Results

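Levels of 10 genes for proteins that bind mRNA and set its fate were followed in budding yeast with and without the decapping activator Edc3. They are the 6 Puf genes JSN1, PUF2, PUF3, PUF4, MPT5 and PUF6, the poly(A)-binding protein gene PAB1, its partner gene PBP1, and PUB1 and VTS1. They were chosen by name from the genes that the platform annotation pairs with single-gene probe sets, 10 of 5656 such genes. Each had 1 probe set, a group of short oligonucleotides whose combined brightness is the gene's signal, so the 10 genes correspond to 10 of 9275 probe sets. The groups were a strain with EDC3 deleted (edc3Δ, named CFY25 in the sample labels and SYY14 in the design text) and its isogenic wild type HFY114 (WT). Both were grown at 30 °C in the rich medium YEPD with no treatment, and total RNA was extracted with hot phenol. There were 5 Affymetrix Yeast Genome S98 arrays per strain, which the labels call biological replicates 1 to 5 and mark with the experiment letters A, B, C, E and G, each letter holding 1 edc3Δ and 1 WT array. The labels do not say whether the deletion strain was 1 clone.

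Some Puf proteins, among them Puf3, Puf4 and Mpt5, bind short UGUA-containing elements, mostly in the 3′ untranslated regions of mRNAs, and bring in the Ccr4-Not deadenylase and decapping factors, so that the bound mRNA is repressed or degraded. Poly(A)-binding protein coats the tail that the deadenylase shortens, and decapping follows once the tail is short. Edc3 acts at that last step, as a stimulator of the decapping enzyme Dcp1-Dcp2 and a scaffold of processing bodies. The comparison of strains asks whether the mRNAs of these regulators differ in level when Edc3 is missing.

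The EDC3 signal was 1.38 ± 0.85 on edc3Δ arrays and 469 ± 8.94 on WT arrays (SD, n = 5 each), so the strain labels matched it. Array medians were close, from 58.2 to 66.7. Arrays of experiments E and G were nearly alike within a strain: their log2 signals at the 2653 tested probe sets brighter than 200 on average differed with a median absolute deviation of 0.082 (edc3Δ) and 0.091 (WT), while the 18 remaining same-strain pairs gave 0.21 to 0.48. The labels do not say whether E and G came from separate cultures, and the counts of members called for strain, letter and change between sets were also made with E and G averaged. A signal is an average over a culture, so fewer cells with an mRNA and less of it per cell cannot be told apart. Signals of different probe sets depend on their oligonucleotides and are not compared with each other here.

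Of the 10 genes, 9 passed the filter on dim probe sets (PUF3 did not), and 0 of these 9 passed limma's test between the strains. The fitted log2 differences, edc3Δ minus WT, ran from -0.19 for VTS1 to 0.15 for JSN1, 3 above zero and 6 below, with a median of -0.04. On leaving out 1 array, VTS1 ran from -0.30 (without edc3Δ G) to -0.07 (without WT G), and JSN1 from 0.07 (without WT C) to 0.25 (without WT A). With the block, JSN1 was at 0.06 without experiment C. The adjusted p was 0.9994 for each of the 9, where a Benjamini-Hochberg value under 0.05 over all 6492 tested probe sets counts as called. The share called over all tested probe sets was 0.077%, with a median difference of -0.0037. At an unadjusted p under 0.05 there were again 0 of 9, against 4.82% of all probe sets. The arrays of edc3Δ and WT overlapped for each of the 10 genes, while they were fully apart for 1.2% of all tested probe sets. With the experiment as a block, which compares the 2 arrays of each letter, 0 of 9 were called against 0.447% of all, and 1 of 9, VTS1, had an unadjusted p under 0.05 against 23.1% of all.

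**Figure D1:**
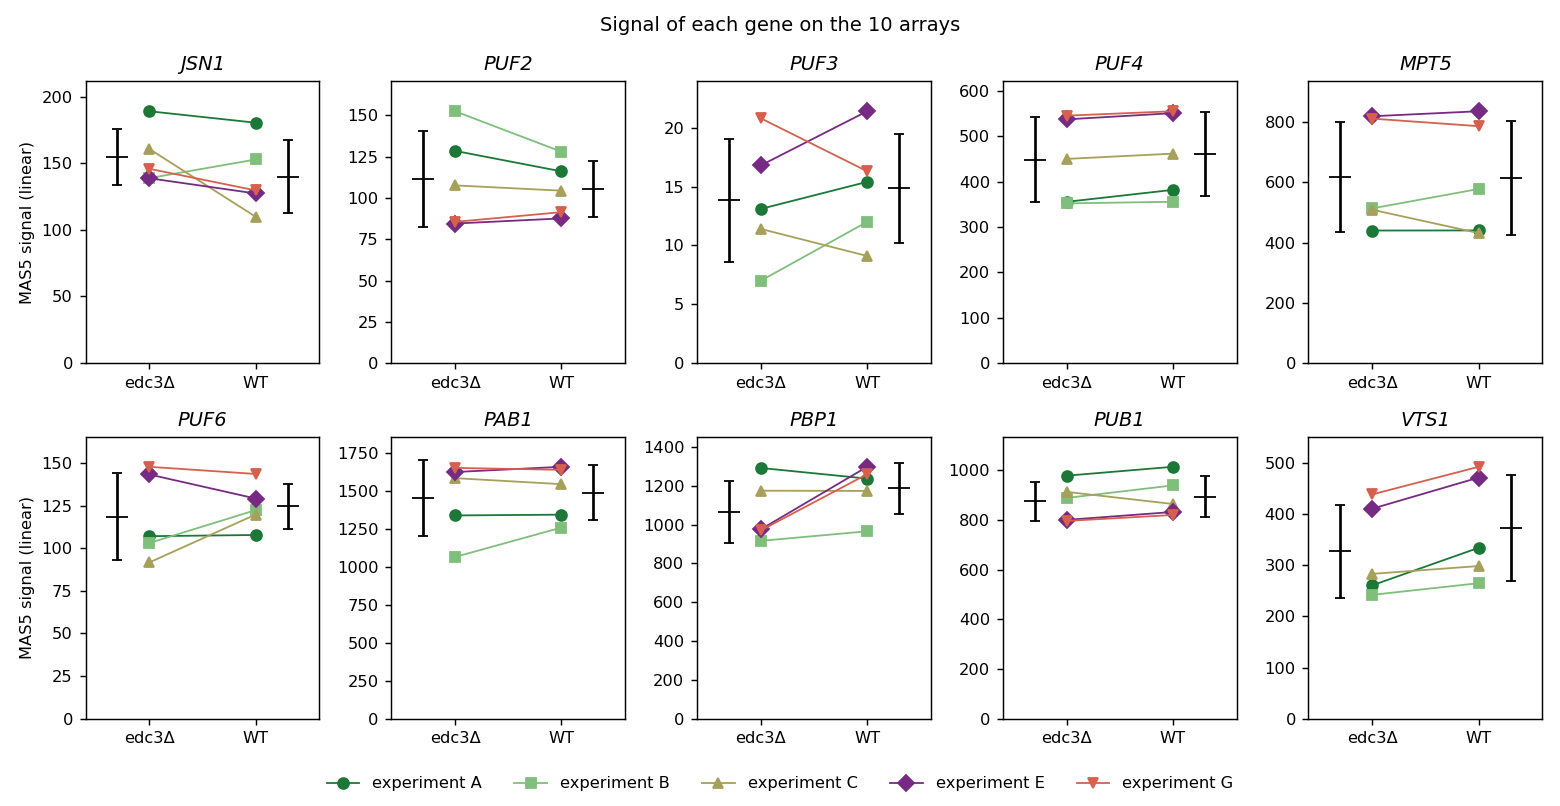
MAS5 signal (linear, from 0) of the 10 genes on each array, edc3Δ left and WT right, with a line joining the 2 arrays of an experiment and bars giving mean ± SD over 5 arrays. The strains overlap in every panel, and the lines of experiments E and G lie close together except for PUF3.

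JSN1 (YJR091C, on chromosome X, also called PUF1) and PUF2 (YPR042C, chromosome XVI) encode Puf proteins that bind mRNAs of membrane-associated proteins. JSN1 signals in experiments A, B, C, E and G were 189.0, 138.8, 160.7, 138.7 and 145.8 in edc3Δ cells, against 180.4, 152.8, 109.8, 127.3 and 129.6 in WT cells. The edc3Δ array was the higher one in 4 of 5 experiments, with B the exception and the widest gap in C, where the log2 difference was 0.55. The fitted difference was 0.15 ± 0.14 (SE), with a 95% interval from -0.16 to 0.47, or from -0.06 to 0.37 with the block. PUF2 signals in the same order were 128.5, 152.5, 107.6, 84.5 and 85.5 in edc3Δ cells, against 116.1, 128.0, 104.4, 87.6 and 91.4 in WT cells. The edc3Δ array was higher in A, B and C and lower in E and G. Its fitted difference was 0.06 ± 0.18 (SE), with a 95% interval from -0.33 to 0.45, or from -0.10 to 0.22 with the block.

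PUF3 (YLL013C, chromosome XII) encodes the Puf protein that binds mRNAs of nuclear-encoded mitochondrial proteins and promotes their decay. Its signals were 13.1, 7.0, 11.4, 16.8 and 20.8 in edc3Δ cells, against 15.4, 12, 9.1, 21.4 and 16.3 in WT cells. Its mean log2 signal fell below the filter, which lies at a signal of 16.8, though on each array it was at least 2.02 times the highest signal of the 4 mouse control probe sets, for which yeast has no target. The strains did not keep one order: edc3Δ was lower in A, B and E and higher in C and G. In a fit of all 9275 probe sets with no filter, the difference was -0.14 ± 0.32 (SE) with a 95% interval from -0.83 to 0.56 (limma adjusted p = 0.9999). This interval is the widest of the 10 genes, and even the otherwise similar arrays of E and G differed for PUF3 by 0.35 on the log2 scale on average, against 0.0144 to 0.0986 for the other 9.

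PUF4 (YGL014W) and MPT5 (YGL178W, also called PUF5), both on chromosome VII, encode Puf proteins that repress the HO mRNA, with Mpt5 contacting the deadenylase subunit Pop2. PUF4 signals were 355.2, 351.8, 449.8, 536.9 and 545.1 in edc3Δ cells, against 381.6, 355.4, 461.4, 550.6 and 554.8 in WT cells. The edc3Δ array was lower in 5 of 5 experiments, and 20.4% of all tested probe sets likewise had one sign in all 5. The gaps were small, from -0.10 to -0.01 on the log2 scale. The fitted difference was -0.04 ± 0.17 (SE) without the block and has an SE of 0.04 with it, for a blocked 95% interval from -0.15 to 0.06.

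MPT5 signals were 439.8, 513.4, 508.8, 819.1 and 811.2 in edc3Δ cells, against 440.2, 577.8, 431.3, 835.7 and 786.2 in WT cells. The edc3Δ array was higher in C and G and lower in the other 3 experiments, though in A by no more than 0.0013 on the log2 scale. Its fitted difference was 0.02 ± 0.24 (SE), with a 95% interval from -0.50 to 0.53 that narrowed to -0.12 to 0.16 with the block.

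PUF6 (YDR496C, chromosome IV) encodes a nucleolar Puf protein that represses ASH1 mRNA translation during its transport to the bud and also takes part in assembly of the large ribosomal subunit. Its signals were 107.0, 103.0, 91.6, 143.2 and 147.7 in edc3Δ cells, against 107.7, 122.3, 119.7, 129.1 and 143.5 in WT cells. The edc3Δ array was lower in A, B and C and higher in E and G, the reverse of PUF2. The fitted difference was -0.09 ± 0.15 (SE), with a 95% interval from -0.41 to 0.23, or from -0.29 to 0.11 with the block.

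PAB1 (YER165W, chromosome V) encodes the poly(A)-binding protein, which joins the mRNA tail to the initiation factor eIF4G at the cap. Its signals were 1337.8, 1064.3, 1583.4, 1623.8 and 1650.6 in edc3Δ cells, against 1343.0, 1258.0, 1543.8, 1658.1 and 1638.3 in WT cells. The largest gap was in B, where edc3Δ was lower by a log2 difference of -0.24, and in the other 4 experiments the differences lay between -0.03 and 0.04. The fitted difference was -0.05 ± 0.13 (SE), with a 95% interval from -0.34 to 0.24, or from -0.16 to 0.07 with the block.

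PBP1 (YGR178C, chromosome VII) encodes the yeast relative of ataxin-2, which binds Pab1, counters tail shortening and promotes stress granules. Its signals were 1291.9, 916.2, 1174.7, 975.4 and 970.3 in edc3Δ cells, against 1237.1, 965.5, 1173.6, 1297.9 and 1259.8 in WT cells. In A, B and C the 2 strains lay side by side, with log2 differences of 0.06, -0.08 and 0.0014, whereas in E and G edc3Δ was lower, with differences of -0.41 and -0.38. The fitted difference over all 5 experiments was -0.16 ± 0.12 (SE), with a 95% interval from -0.42 to 0.10. With the block the interval was -0.34 to 0.02 and the limma adjusted p 0.254. With experiments E and G alone PBP1 was called (log2 difference -0.39, limma adjusted p = 0.00343), but in that fit so were 1263 of the 6492 probe sets. The arrays of E and G were nearly alike within a strain and may not be separate cultures. The spread in that fit may thus fall short of that between cultures. With A, B and C alone the difference was -0.0039 ± 0.15 (SE, limma adjusted p = 0.9995).

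PUB1 (YNL016W, chromosome XIV) encodes a poly(U)-binding protein that stabilises mRNAs such as GCN4, which carry short upstream reading frames. Its signals were 978.7, 889.0, 913.5, 800.6 and 796.4 in edc3Δ cells, against 1014.5, 939.5, 864.7, 832.5 and 820.4 in WT cells. The signal was lower in edc3Δ in 4 of 5 experiments, with C the exception. The fitted difference of -0.03 ± 0.09 (SE) had the tightest 95% interval of the 9 tested genes, from -0.23 to 0.17. With the block it was -0.13 to 0.07.

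VTS1 (YOR359W, chromosome XV) encodes a protein of the Smaug family, which binds RNA hairpins through a SAM domain and recruits Ccr4-Not. Its signals were 261.0, 242.3, 283.4, 411.0 and 439.0 in edc3Δ cells, against 334.4, 265.1, 298.7, 471.9 and 493.0 in WT cells. The signal was lower in edc3Δ in 5 of 5 experiments, with log2 differences of -0.36, -0.13, -0.08, -0.20 and -0.17, yet the strains overlapped. E and G were high in both strains. Within A, B and C the strains overlapped too, with the WT array of B (265.1) below the edc3Δ array of C (283.4). One sign in all 5 was also found for 20.4% of all tested probe sets. The fitted difference was -0.19 ± 0.22 (SE, 95% interval -0.66 to 0.29) without the block. With the block the SE was 0.06 and the interval -0.31 to -0.06, and the limma adjusted p of 0.111 missed the threshold (0.303 with E and G averaged). The size was alike in both sets of experiments, with a mean of -0.18 in E and G and of -0.19 in A, B and C.

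**Figure D2:**
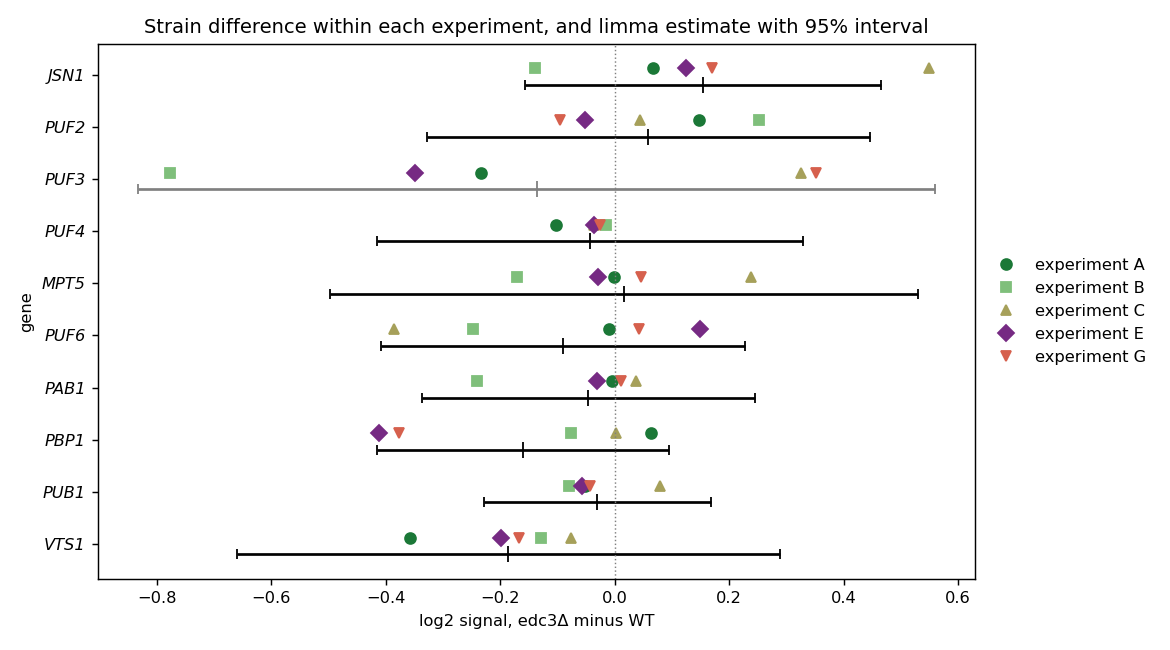
Log2 signal of edc3Δ minus WT for each gene (rows), with a coloured point for each experiment and, below the points, limma's estimate without the block and its 95% interval in black (grey for PUF3, from the fit with no filter). All 10 intervals include 0, and all 5 points lie below 0 for PUF4 and VTS1 (20.4% of all tested probe sets had one sign in all 5).

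Levels differed between the experiments for 7 of the 9 tested genes. Over the 9 tested genes, the levels by letter (log2 means of the edc3Δ and WT arrays) spanned 1.23-fold for PUB1 to 1.88-fold for MPT5 between the highest and the lowest letter. An F test over the 5 letters in limma, with the strain in the model, called PUF2, PUF4, MPT5, PUF6, PAB1, PUB1 and VTS1. The same test called 51.8% of all tested probe sets, so differences between letters were common on these arrays. With E and G averaged as 1 experiment it called 5 of 9, PUF2, PUF4, MPT5, PAB1 and VTS1, against 45.3% of all. The median span over the 9 genes was 0.51 on the log2 scale, against 0.48 over all tested probe sets. Growth, RNA preparation and scanning cannot be told apart within a letter. According to the instrument records, E had 1 scan at 2.5 µm per pixel, whereas A and B had 2 scans at 3 µm, and those fields are blank for C and no record was used for G.

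**Figure D3:**
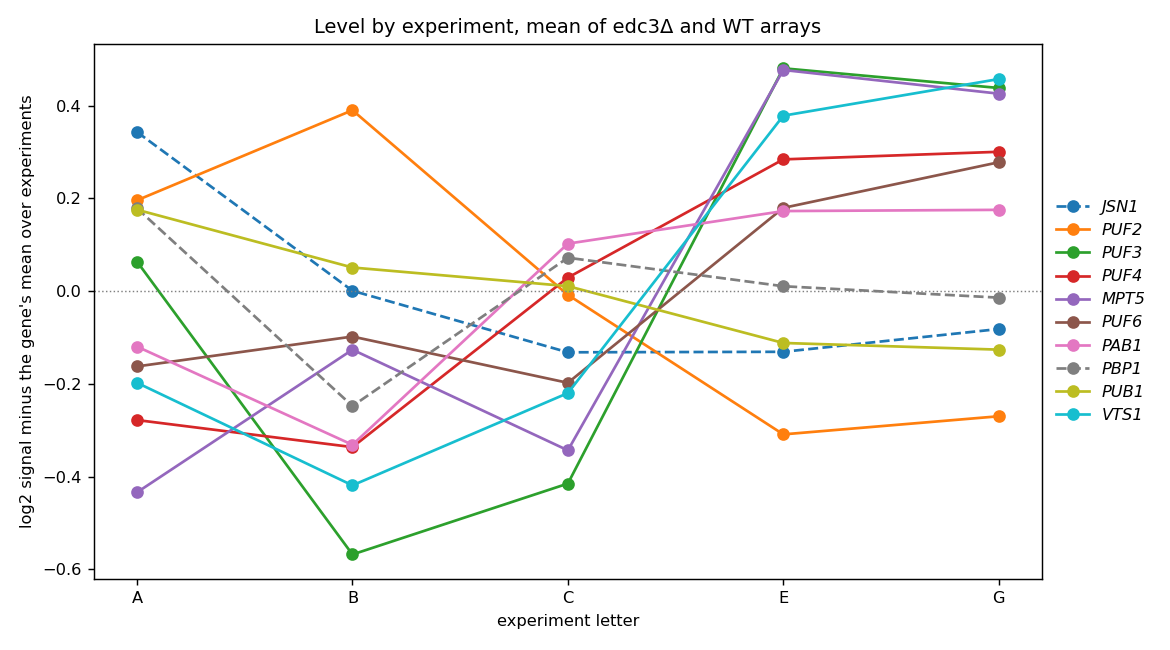
Log2 level of each gene by experiment letter, as the mean of the edc3Δ and WT arrays minus the gene's mean over the 5 experiments; dashed lines mark JSN1 and PBP1, whose E and G arrays overlap the others. PUF3, PUF4, MPT5, PUF6, PAB1 and VTS1 are high in E and G, and PUF2 and PUB1 are low there.

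Of the 10 regulators, 6 were high and 2 were low in experiments E and G. For PUF4, MPT5, PUF6, PAB1 and VTS1, as for the dim PUF3, the lowest of the 4 E and G arrays was above the highest of the 6 A, B and C arrays. For PUF2 and PUB1 all E and G arrays were below the others, and for JSN1 and PBP1 the sets of arrays overlapped. Among all tested probe sets, 9.5% were fully higher and 16.5% fully lower in E and G, and 26% did not overlap in either direction. The split of experiments was taken from the overall likeness of the arrays, and the counts are a description without a test.

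Among the genes high in E and G, MPT5 stood at 786.2 to 835.7 on those 4 arrays, against 431.3 to 577.8 on the arrays of A, B and C, a difference of 0.75 on the log2 scale. That difference itself was not tested. The test over the 5 letters gave MPT5 F = 38.7 (limma adjusted p = 5.7e-04, and 0.00307 with E and G averaged). In the order of its letter means, A, C, B, G and E, the step between B and G, of 0.55, was the one beyond the 95% half-width of 0.22 for a difference of letters. VTS1 stood at 411.0 to 493.0 in E and G, against 242.3 to 334.4 in A, B and C, a difference of 0.70. Its step between A and E, of 0.58, was likewise the one beyond the half-width of 0.20. The test over the 5 letters gave VTS1 F = 39.6 (limma adjusted p = 5.37e-04, and 0.00325 with E and G averaged). Steps compare neighbouring letters, with E and G taken as separate experiments, and letters further apart in the order can differ where neighbours do not. The half-widths are not adjusted for the number of steps.

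PUF4 had more than 2 levels over the letters: B and A, at 354 and 368, were not separated, C lay above both at 456, and E and G above C at 544 and 550 (F = 36.4, limma adjusted p = 6.49e-04). PAB1 had its lowest level in B, at 1157, below A at 1340, which in turn lay below C, and C, E and G, at 1563, 1641 and 1644, were not separated from each other as neighbours (F = 15.8, limma adjusted p = 0.00385). PAB1 in C thus sat with E and G and not with A and B. PUF6 had a narrower spread, from 105 in C to 146 in G, in which 0 of 4 steps between neighbours exceeded the half-width of 0.31 (F = 4.97, limma adjusted p = 0.0468). For PUF3 the letter means ran from 9.16 in B to 19.0 in E, and in the fit with no filter the letters were not called (adjusted p = 0.0956, where 33.3% of all probe sets were called).

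PUF2 ran the other way, at 84.5 to 91.4 in E and G against 104.4 to 152.5 in A, B and C (log2 difference -0.48, F = 14.6, limma adjusted p = 0.00454). Its step between G and C was the one beyond the half-width of 0.25. For PUB1 the test over the 5 letters gave F = 6.56 (limma adjusted p = 0.0264, and 0.0668 with E and G averaged). PUB1 stood at 796.4 to 832.5 in E and G against 864.7 to 1014.5 in A, B and C, a smaller log2 difference of -0.20 with 0 of 4 steps beyond the half-width of 0.16. With each array centred on its median that difference was -0.11, and the letter call was lost (adjusted p = 0.195). JSN1 was high in A, at 185, against 133 to 146 in the other letters, and PBP1 was lowest in B, at 941, and highest in A, at 1264. These last 2 were not called for letter (limma adjusted p = 0.0831 and 0.103). The letter calls of PUF6 and PUB1 were each lost under 6 of 12 other settings, with adjusted p of up to 0.152 and 0.195. Among these, the PUF6 call was lost without experiment A, B or G (adjusted p = 0.0767, 0.057 and 0.152) and the PUB1 call without A, E or G (adjusted p = 0.16, 0.062 and 0.0783), while JSN1 was called without C (adjusted p = 0.0225).

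Whether the strain difference itself changed between E and G and A, B and C was tested in limma on the 5 within-experiment differences. PBP1 had the largest change of the 9 tested genes: the mean strain difference was -0.39 in E and G and -0.0039 in A, B and C, a change of -0.39 ± 0.08 (SE). Its adjusted p of 0.0501 lay just above the threshold, and 0 of 9 genes were called against 1.97% of all tested probe sets, with 1 of 9 at an unadjusted p under 0.05 against 15.4% of all. PUF6 changed by 0.31 ± 0.14 (SE, adjusted p = 0.349) and PUF2 by -0.22 ± 0.12 (SE, adjusted p = 0.446), and the other 6 by -0.03 to 0.06. The PBP1 change was called under 3 of 12 other settings. These were the dimmest 50% left out, the log2(signal + 16) scale, and experiment B left out (limma adjusted p = 0.0466, 0.0496 and 0.0262). It was not called under the other 9. Among these were median centring, no filter, experiment A or C left out, and eBayes without trend (limma adjusted p = 0.0512, 0.0657, 0.0912, 0.105 and 0.173). With E and G averaged as 1 replicate the PBP1 change is the same number by construction, so its size there is no further evidence. It was -0.37 without E and -0.41 without G. In each of these fits the E and G set held 1 difference, and PBP1 was not called.

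**Figure D4:**
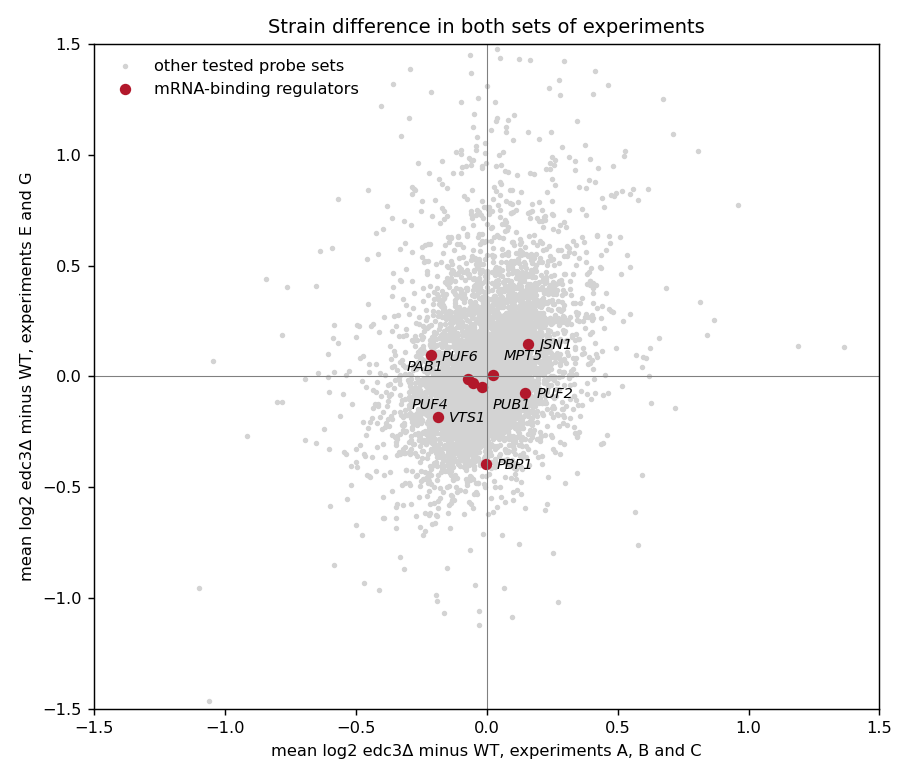
Mean log2 edc3Δ minus WT in experiments E and G (vertical) against that in A, B and C (horizontal), for the 9 tested regulators (red) and all other tested probe sets (grey); 27 of 6492 lie outside the axes. PBP1 sits at -0.39 in E and G with almost no difference in A, B and C, and the other regulators lie between -0.21 and 0.16 on both axes.

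The proteins that work with these regulators were described from lists, chosen with earlier results of these data known. Of 12 genes for deadenylation and decapping factors that some Puf proteins and Vts1 rely on, 0 were called for strain in limma and 0 reached an unadjusted p under 0.05. The list had a median log2 difference of -0.02. CDC39, the scaffold subunit of Ccr4-Not also known as NOT1, had signals of 125 ± 14.3 in edc3Δ cells and 100.1 ± 28.7 in WT cells (SD, n = 5 each), a difference of 0.36 ± 0.17 (SE, adjusted p = 0.9994). DCP2, the catalytic decapping subunit, differed by -0.20 ± 0.12 (SE).

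Of 9 partners of Pab1 and Pbp1, 0 were called, with 1 at an unadjusted p under 0.05, and the median difference was 0.12. That 1 gene was TIF4632, one of the pair of eIF4G genes, with signals of 51.2 ± 4.64 in edc3Δ cells and 41.7 ± 4.23 in WT cells (SD, n = 5 each), higher in 5 of 5 experiments (log2 difference 0.30 ± 0.11, SE, limma adjusted p = 0.943). Of all tested probe sets, 20.4% had one sign in all 5. PAN3, a subunit of the Pab1-dependent deadenylase, had signals of 226 ± 52.9 in edc3Δ cells and 284 ± 62.7 in WT cells (SD, n = 5 each) and was lower in 4 of 5 (difference -0.34 ± 0.18, SE). Neither passed with the block (limma adjusted p = 0.112 and 0.114).

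Of 26 other mRNA-binding protein genes found on the array, 24 passed the filter and 0 were called, with 0 at an unadjusted p under 0.05 and a median difference of 0.01. NAB6 and SCP160, which is a KH-domain protein of polysomes, were both lower in 5 of 5 experiments, with differences of -0.19 ± 0.11 and -0.19 ± 0.14 (SE), and did not pass. One sign in all 5 experiments was shared by 20.4% of all tested probe sets. In the test of change between the sets of experiments, 1 gene of this list, SCD6, and 1 Pab1 partner, SUP35, were called, against 1.97% of all tested probe sets. They are named here after their values were seen. SCD6, a translation repressor that binds eIF4G, differed by 1.00 in E and G and -0.10 in A, B and C (limma adjusted p = 0.00528). Its signals were 286.5 ± 30.09 in edc3Δ cells and 244.9 ± 102.5 in WT cells (SD, n = 5 each). SUP35, the termination factor eRF3, differed by 0.92 in E and G and -0.13 in A, B and C (limma adjusted p = 0.00184). Its signals were 483.2 ± 11.99 in edc3Δ cells and 418.4 ± 146.5 in WT cells (SD, n = 5 each). For both genes the WT arrays spread more widely than the edc3Δ arrays. Averaged over the 2 strains, the level was lower in E and G, by log2 differences of -0.72 (SCD6) and -0.50 (SUP35). Since the strain difference changed between the sets, by 1.1 and 1.04, these averages do not give the change within each strain. With E and G averaged neither was called (limma adjusted p = 0.0868 and 0.0601).

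Finally, 14 mRNAs reported as targets of these proteins in yeast were all tested, and 0 were called for strain, with 0 at an unadjusted p under 0.05 and a median difference of 0.02. TUF1, the mitochondrial elongation factor and a Puf3 target, had signals of 693 ± 82.2 in edc3Δ cells and 592 ± 135 in WT cells (SD, n = 5 each). It was higher in 5 of 5 experiments (20.4% of all tested probe sets had one sign in all 5), with a difference of 0.25 ± 0.16 (SE, limma adjusted p = 0.9994). GCN4, the transcription factor whose mRNA Pub1 stabilises, differed by -0.06 ± 0.08 (SE). For the letters, with E and G as separate experiments, 11 of these 14 were called (78.6%), as were 6 of 12 deadenylation and decapping genes (50%), 5 of 9 Pab1 and Pbp1 partners (55.6%) and 10 of 24 other mRNA-binding protein genes (41.7%), against 51.8% of all tested probe sets.

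The single-gene probe sets whose log2 signals were most like those of the 3 members with the widest range among the 9 that passed the filter were looked up over the 10 arrays among 5412 probe sets. Since the arrays form 2 sets, each correlation is given with that over the 6 arrays of A, B and C, as a description. VTS1 was most like UBP10, a histone deubiquitinase, with r = 0.981 over 10 arrays and 0.901 over 6, then NAF1 (0.98 and 0.897) and TOD6 (0.98 and 0.849). NAF1 is an assembly factor of small nucleolar RNPs and TOD6 a repressor of ribosome biogenesis genes. MPT5 was most like BMT5, an rRNA methyltransferase (0.979 and 0.772), TCD1, a tRNA-modifying enzyme (0.974 and 0.852), and DBP8, a helicase of ribosome assembly (0.968 and 0.707). PUF2 was most like YJR096W (0.985 and 0.977), RET3, a coatomer subunit (0.981 and 0.94), and ERP5, of the p24 family of secretory cargo proteins (0.981 and 0.958).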

How the data were processed

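Per the submitters' processing notes the deposited table holds MAS5 signals, an intensity for each probe set on each array; no version was given. The scale is linear and arrays were scaled to a common level (2%-trimmed means within 0.0186%). The instrument records deposited for 8 arrays hold other, non-expression settings.

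Signals were converted to log2 after 156 signals of 0 were raised to 0.1. The 60 control probe sets and the dimmest 30% of the other 9275 by mean log2 signal were left out, and 6492 were tested in limma 3.58.1 under R 4.3.3 (lmFit, then eBayes with its trend on mean intensity), two-sided, with Benjamini-Hochberg adjustment over all of them. Errors are limma's SE unless SD is written. Fits were of 5 arrays against 5, of 5 letters with strain in the model, and of the within-letter differences. The array number limits the precision.

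Gene names came from the platform annotation through gene identifiers to RefSeq assembly R64; no coordinates or sequences are given. NGR1 and SGN1 of the lists found no single-gene probe set. The members and lists were chosen with earlier results of these data known. The naming rule took all members, EDC3, up to 3 genes of smallest strain p per list with any called, and the 3 most similar genes of the 3 members of widest range among those past the filter.

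Strains share replicate numbers and letters. Same-numbered arrays deviated together from their strain means (correlations of 0.65, 0.713, 0.475, 0.652 and 0.692 for A, B, C, E and G), which was taken as pairing. No 2 arrays were identical.

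On simulated data with 200 of 6492 probe sets changed and no shared letter effect, the strain fit recovered 88.1% of 1.5-fold changes, the letter fit 41.8% and the set-change fit 20.9%, and of 2-fold changes 98.5%, 88.1% and 76.1%. False calls numbered 17, 7 and 4. The real arrays differed between letters at 51.8% of tested probe sets, which the strain fit without the block does not remove. Its simulated recovery is therefore not the recovery to be had on these arrays. The simulated arrays were also drawn independently, whereas the real E and G arrays were nearly alike within a strain. The simulated recoveries and false calls of the letter and set-change fits thus need not hold on these arrays either.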

Additional observations from a re-analysis of the deposited data

Results flagged for a closer look

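PUF2 and PUF6 had strain differences of opposite sign in the 2 sets of experiments. For PUF2, edc3Δ was below WT in both E and G and above it in A, B and C, a change of -0.222 on the log2 scale (limma adjusted p = 0.446). For PUF6, edc3Δ was above WT in both E and G and below it in A, B and C, a change of 0.31 (limma adjusted p = 0.349). Neither change passed the test of the difference, and the 2 genes ran in opposite directions. Among the 20 sets of 5 arrays (10 genes in 2 strains), 0 held an array far from the others by Dixon's criterion, which chance meets in about 1 of 20.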

How the results depend on the processing

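For strain, 0 of 9 genes were called as reported and in 29 of 30 other settings; the exception was 1 gene, PBP1, with E and G alone. Over all probe sets the count called was 5 as reported, 29 with the replicate block, 3 with E and G averaged (8 with the block), 3 in eBayes without trend, 106 with array weights, 10 with the chip lot as block (known for A, B and C; the blank record of E and the absent one of G entered as levels of their own), 2 with A, B and C alone (3 with the block), 1263 with E and G alone, and 0 with B and C alone (chip lot shared, limma, 50 at an unadjusted p under 0.05). Leaving out 1 array gave 3 to 4 called in all and 0 of the 9 genes. With the replicate block, 8, 30, 26, 8 and 7 were called in all without experiment A, B, C, E or G, and 0 of the 9 genes. The pairing by the replicate block changed no call of the 9 genes. For the change between sets, 128 probe sets were called as reported, 61 in eBayes without trend and 11 with E and G averaged, and 8 to 211 on leaving out an experiment. Of the 9 genes 1 was called, PBP1, with the dimmest 50% left out and with log2(signal + 16), and 0 to 1 on leaving out an experiment. For the letters, 2350 to 3390 probe sets and 5 to 8 of the 9 genes were called over 12 settings. Fits with B and C alone, with A, B and C alone and the block, and with E and G averaged for the change between sets were added after seeing the data.

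Signs turned for small uncalled differences. With array weights the strain difference was -0.068 for PUF2, 0.0013 for PUF4, 0.039 for PUF6 and 0.0055 for PAB1. With E and G alone it was -0.074 for PUF2 and 0.096 for PUF6. With the block it was 0.0029 for PAB1 without experiment B and -0.039 for MPT5 without C. On leaving out an array it ran from -0.063 to 0.15 for PUF2, -0.131 to 0.037 for PUF4, -0.097 to 0.14 for MPT5, -0.10 to 0.061 for PAB1 and -0.072 to 0.016 for PUB1. The change between sets was -0.020 for PUF4 and -0.036 for VTS1 with median centring. On leaving out an experiment it ran from -0.0052 to 0.039 for PUF4, -0.081 to 0.060 for VTS1, -0.025 to 0.11 for PAB1, -0.16 to 0.18 for JSN1, -0.11 to 0.094 for MPT5 and -0.063 to 0.016 for PUB1. The causes were not tested. The table holds no detection calls, which limits what can be said of PUF3.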
